A study of Mus musculus with 3 samples.

Results

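Visceral smooth muscle-type cells of the mouse embryo at E15.5 were chosen by their counts of 9 genes, read in each segmented cell of a tissue section. A segmented cell was kept when it held at least 10 counts of panel genes. A kept cell was a member when it had counts of both Myh11 and Acta2, at least 2 counts of Foxf1 and Gata5 together, and fewer than 2 counts over the 5 endothelial genes Pecam1, Cdh5, Kdr, Emcn and Cldn5. In all, 902 of 195915 kept cells met this rule, or 0.460% (exact 95% binomial interval 0.431 to 0.491%), out of 227437 segmented cells in the whole series.

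The series comprised 3 sagittal sections of whole wild-type mouse embryos, imaged by MERFISH, which labels and counts single RNA molecules of many genes inside intact tissue. Both E9.5 sections came from different embryos, and the E15.5 section was the 1 section of its stage. The labels name no treatment and no allele other than wild type, and the panel gave counts for 296 genes.

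Visceral smooth muscle forms the muscular coat of hollow organs such as the gut and the airways. It arises from the mesoderm around the endodermal tube, where hedgehog signals from the epithelium switch on the forkhead factor Foxf1, and its cells then build up smooth muscle myosin and actin. Vascular smooth muscle shares these contractile genes but has other origins and generally lacks Foxf1. Myh11 encodes the smooth muscle myosin heavy chain, Acta2 the smooth muscle alpha-actin, and Gata5 a zinc finger factor of heart and endodermal organ mesoderm.

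The 4 positive genes of the rule are described here without a test, since they chose the cells. Members held 23.0 ± 27.0 Myh11 counts per cell (SD, n = 902 cells), with a median of 12, a middle range of 3 to 35 and a highest count of 196. Acta2 stood at 8.98 ± 9.77 counts per cell, with a median of 5 and a highest count of 83. The SD between members exceeded the mean for both genes: 54.5% of members held at least 10 Myh11 counts (51.2 to 57.8%), and 8.98% held exactly 1 count of each (7.20 to 11%). Foxf1 was counted in 97.9% of members and averaged 3.95 ± 2.56 counts. Gata5 was counted in 19.3% of them (16.8 to 22.0%), so Foxf1 alone met the rule in 728 members, Gata5 alone in 19 and both genes were present in 155. Among the other kept cells 4.23% had a Myh11 count, 9.57% an Acta2 count, 7.09% a Foxf1 count and 2.75% a Gata5 count.

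The label therefore rests on Myh11, Acta2 and Foxf1 in nearly all members and on Gata5 in a minority of them. Of the 20 contractile genes listed for smooth muscle, the panel held only Myh11 and Acta2, both used by the rule, so no other contractile gene of the list could be read. At the edge of the rule, 279 members had exactly 2 counts of Foxf1 and Gata5 together. They had a median of 9 Myh11 counts, and 328 Sparcl1 counts per 10000 panel counts outside the rule's 9 genes. The 395 cells just outside, with 1 such count, had a median of 4 Myh11 counts and 204 Sparcl1 counts on the same scale.

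Members were deeper and larger than other cells. They held a median of 194 panel counts (middle range 134 to 276) and 64 genes, against 83 counts and 36 genes in all other kept cells. Their median volume was 799 against 638 cubic micrometres. The rule asks for a minimum of counts and so favours deep cells, and these depths include the rule's own genes. For this reason every gene below is given as a share: its counts summed over a group of cells, per 10000 panel counts outside the 9 genes of the rule. A gene was called higher or lower in members when 2 shares differed by 2-fold or more, on at least 50 counts, with a 95% interval that excluded 1. The intervals are exact, treat counts as Poisson and cover counting error only. With 1 section there is no replicate and no test, and cells are not replicates of the stage. The section held 21309070 panel counts, the kept cells a median of 84, and blank codes took 0.305% of all counts. In members a blank code averaged 1.30 per 10000 and the highest reached 4.58, and 25 of the 287 genes outside the rule lay below that mean. No cell label occurred in 2 sections.

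**Figure D1:**
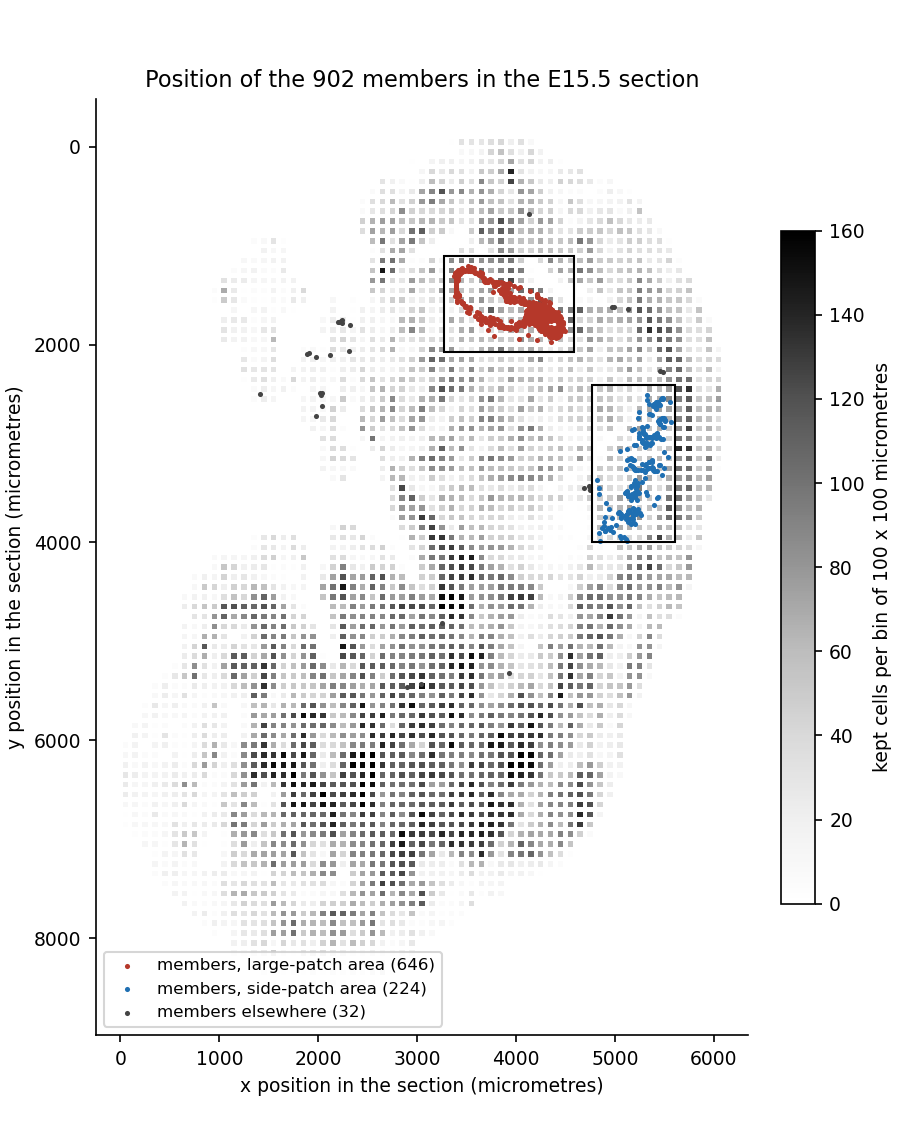
Position of the members in the E15.5 section, with x and y in micrometres. Grey squares give the number of kept cells in bins of 100 by 100 micrometres and points are single members: 646 in the large-patch area (red), 224 in the side-patch area (blue) and 32 elsewhere (dark grey), with the bounds of both areas drawn as boxes.

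Members were gathered in a small part of the section. When members no more than 50 micrometres apart were linked, they fell into 65 patches, of which 42 were single cells and 8 held at least 10 members. The largest patch held 639 members, 70.8% of the total, and traced a loop with a dense end, 3375 to 4492 micrometres along x and 1207 to 1972 along y. The other 7 patches of at least 10 members held 10 to 39 each and lay in a separate column between 4870 and 5510 micrometres along x and 2512 and 3898 along y. A box around the largest patch with a margin of 100 micrometres held 646 members (71.6%, 68.6 to 74.5%), and a box around the other 7 held 224 (24.8%, 22.0 to 27.8%). These boxes are called the large-patch area and the side-patch area, since the files name no organ, and they were drawn after the positions had been seen.

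**Figure D2:**
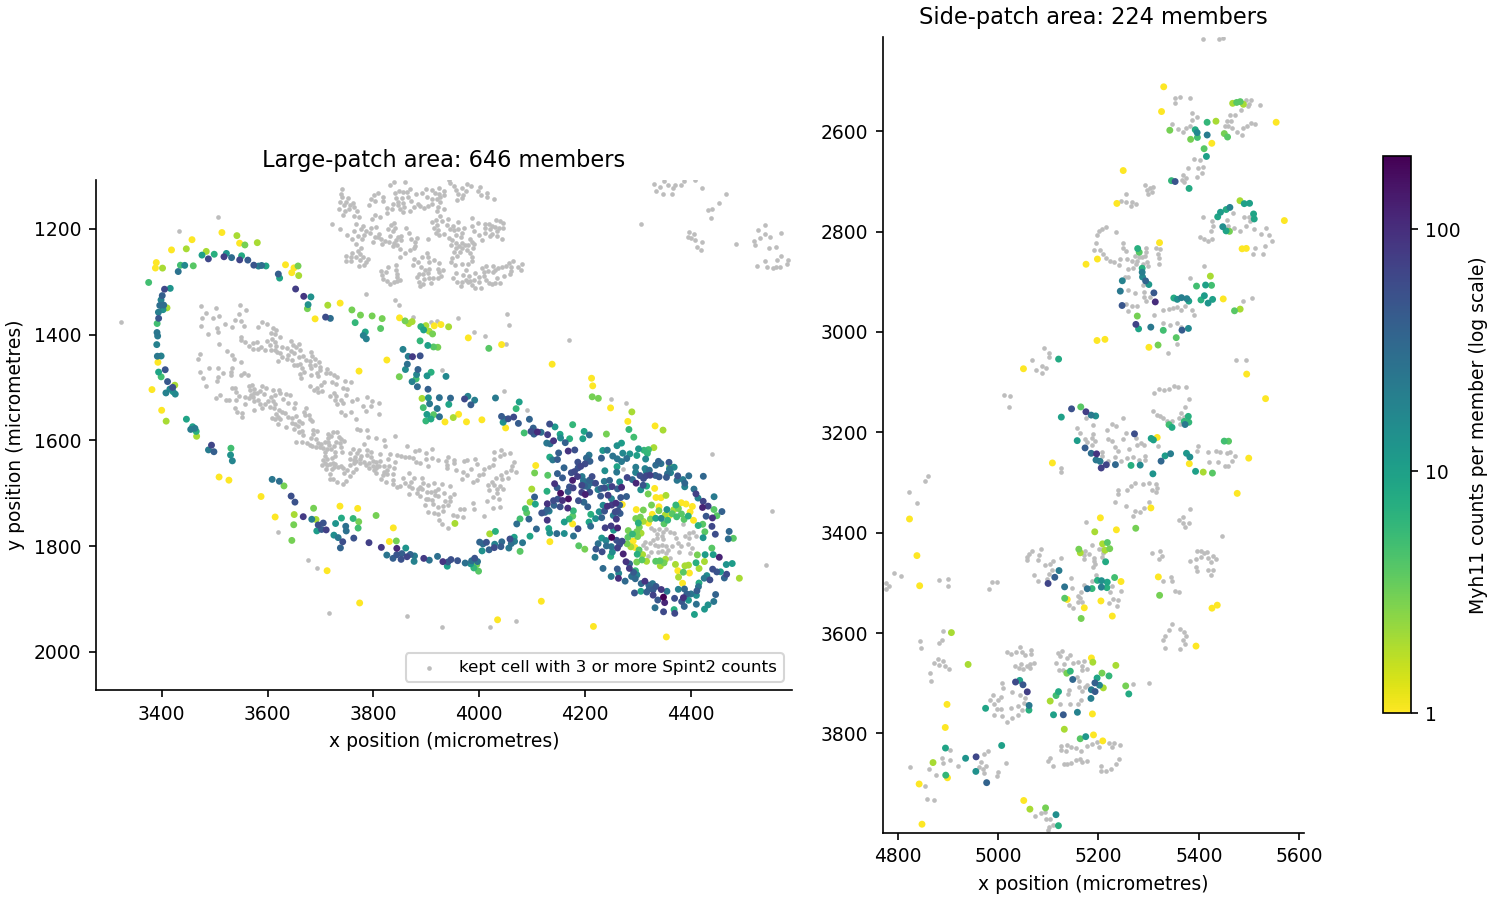
Members of the large-patch area (left) and the side-patch area (right), with x and y in micrometres, coloured by Myh11 counts per cell on a log scale from 1 to 196. Grey points are kept cells with at least 3 counts of the epithelial gene Spint2: they lie inside the loop and its dense end in the large patch, as well as in a separate group above it, and in small rings beside the members of the side-patch area.

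Cells rich in Spint2 lay close to the members of the side-patch area and farther from those of the large-patch area. Spint2 encodes a protease inhibitor of epithelial cells and is the only panel gene of the 19 listed for epithelium. In the large-patch area a member lay a median of 64.7 micrometres from the nearest kept cell with at least 3 Spint2 counts (middle range 43.5 to 79.2), and in the side-patch area 18.1 micrometres (12.3 to 25.5). Members of the large-patch area had a median of 4 other members among their 10 nearest kept cells, and members of the side-patch area had 1. The map of both areas shows a thin loop of members that widens into a dense ring at its right end in the first, and short rows of members beside small Spint2 rings in the second.

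Against all other kept cells, 24 of 287 genes were higher in members (8.36%) and 59 were lower (20.6%). Per cell volume in place of panel counts the numbers were 37 and 39, and thinned to 40 counts a cell 24 and 34. The genes with the highest folds encode matrix proteins, a muscle LIM protein, ion channel subunits and transcription factors of visceral mesoderm. The matricellular gene Sparcl1 stood at 336 per 10000 in members and 45.2 in the other cells, 7.43-fold higher (7.23 to 7.63). Pdlim3, an actinin-binding LIM protein of muscle, stood at 166 and 23.5, 7.04-fold higher (6.77 to 7.32). Ltbp4, which binds latent TGF-beta and takes part in elastic fibre assembly, stood at 70.7 and 12, 5.88-fold higher (5.54 to 6.24). These 3 genes were higher than in the other cells in each of the 5 patches with at least 30 members, by 5.99 to 8.69-fold for Sparcl1, 2.48 to 8.57-fold for Pdlim3 and 1.91 to 6.89-fold for Ltbp4.

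Kcnj8 and Abcc9 encode the pore and the sulphonylurea receptor of an ATP-sensitive potassium channel of smooth muscle and mural cells. Kcnj8 was 5.82-fold higher in members (5.45 to 6.21) and Abcc9 2.58-fold (2.23 to 2.96). The complement regulator Cd55 was 5.10-fold higher (4.54 to 5.71). Among receptors and signalling genes of contractile cells, the endothelin receptor Ednra was 3.39-fold higher (3.19 to 3.6), the G protein regulator Rgs5 3.36-fold (3.11 to 3.63) and Gucy1a1, a subunit of the nitric oxide receptor guanylate cyclase, 3.14-fold (2.97 to 3.33). The factors Gata4 and Hand2 were 4.57-fold (4.16 to 5.02) and 3.67-fold higher (3.46 to 3.88), the protocadherin Pcdh18 3.23-fold (3.12 to 3.35) and the proteoglycan Dcn 2.95-fold (2.87 to 3.04). Without the largest patch, the 263 members left had Kcnj8 at 0.827, Hand2 at 0.608 and Dcn at 0.662 times the share of the other cells, and Gata4 at 1.67-fold. In the side-patch area alone Gata4 stood at 0.291 times (0.107 to 0.634, on 6 counts) and it was above 1 in only 1 of the 5 patches with at least 30 members, so the differences in Kcnj8, Hand2, Dcn and Gata4 rest on the large patch. The endothelin receptor leaned the other way, with Ednra at 1.98-fold in the large-patch area (1.81 to 2.17) and 8.76-fold in the side-patch area (8.04 to 9.52). Cd55 stood at 5.17-fold and 5.12-fold and Sparcl1 at 7.87-fold and 6.80-fold in the large-patch and the side-patch area, while Pdlim3 stood at 8.49-fold and 2.42-fold.

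**Figure D3:**
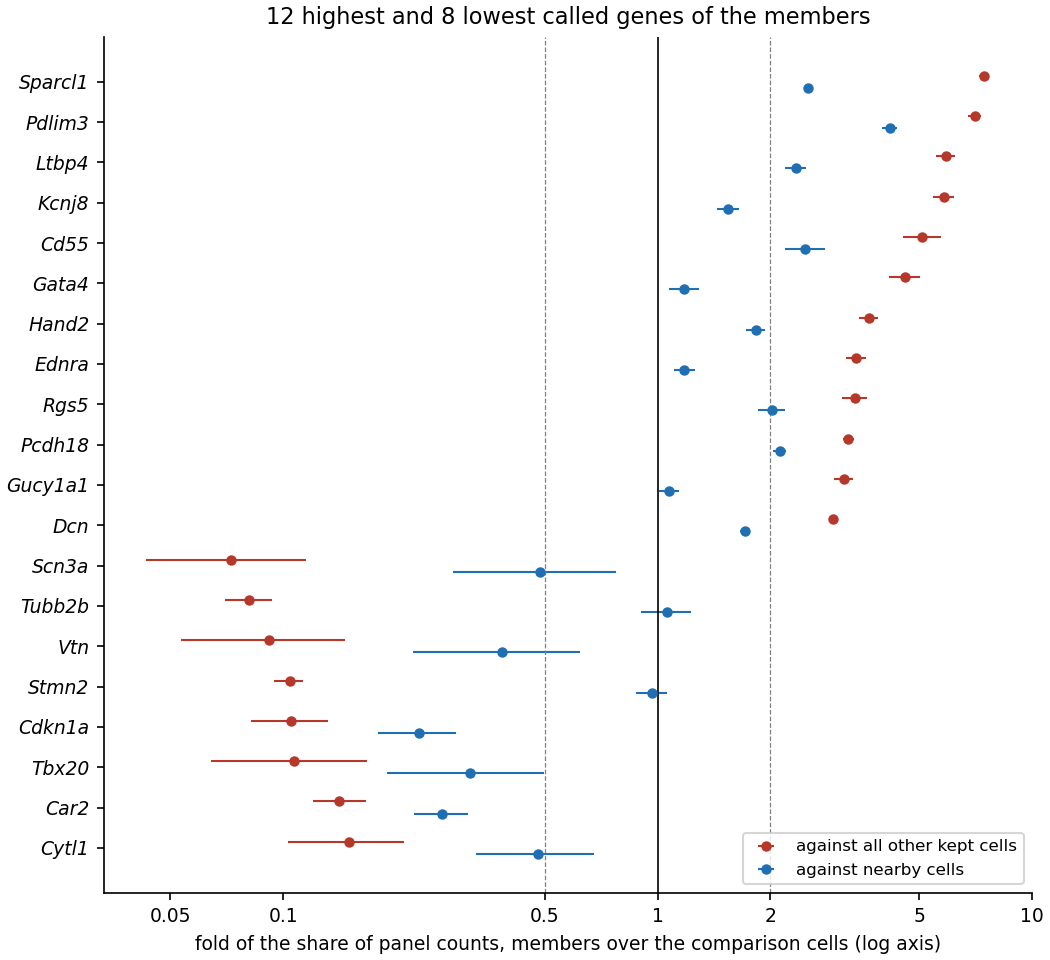
Fold of each gene's share of counts in members over all other kept cells (red) and over kept cells within 100 micrometres of a member (blue), on a log axis, with 95% intervals for counting error. Both comparisons pool the areas, and in them the 12 highest genes all lie above 1, from Sparcl1 at 7.43 and 2.53 to Dcn at 2.95 and 1.71. Of the 8 lowest genes Stmn2 and Tubb2b lie at 0.966 and 1.06 against nearby cells. Against nearby cells of the same area, Gata4 stood at 0.801 and 0.256 times in the large-patch and the side-patch area. Kcnj8 stood at 0.941 and 0.530, Hand2 at 1.15 and 0.498, Dcn at 1.52 and 0.687 and Gucy1a1 at 0.914 and 1.07. The other genes of the 12 stayed above 1 in both areas.

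The lowest genes in members include genes of nerve cells, red blood cells, cartilage and heart. The neuronal sodium channel gene Scn3a was 13.8 times lower than in the other cells (8.72 to 23.3), the neuronal tubulin Tubb2b 12.3 times (10.7 to 14.3) and Stmn2, a tubulin regulator of growing axons, 9.63 times (8.81 to 10.5). Vtn was 10.9 times lower, the cell cycle inhibitor Cdkn1a 9.55 times, the heart factor Tbx20 9.37 times, the carbonic anhydrase gene Car2 7.07 times and the cartilage gene Cytl1 6.68 times. All 8 genes were below the other cells in each of the 5 patches with at least 30 members. These genes too were ranked on the same members, and the patches are not replicates. The lowest patch fold was 0 for Scn3a, Vtn, Stmn2, Cdkn1a, Tbx20 and Cytl1. Scn3a, Vtn, Tbx20 and Cytl1 rest on 17 to 33 counts in members, and Scn3a, Vtn and Tbx20 lay below the mean blank code there.

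Kept cells within 100 micrometres of a member form a closer background. There were 12478 of them with a median of 116 counts, and 39.3% lay in the large-patch area against 71.6% of the members, so the pooled folds mix the areas in different shares. Against these cells 10 genes were higher in members (3.48%): Pdlim3 at 4.17-fold (3.99 to 4.36), the receptor gene Nrp2 at 2.70-fold (2.53 to 2.88), Sparcl1 at 2.53-fold (2.46 to 2.61), Cd55 at 2.48-fold (2.19 to 2.81), Ltbp4 at 2.34-fold (2.19 to 2.49) and Timp3, a metalloproteinase inhibitor of the matrix, at 2.27-fold (2.14 to 2.42), followed by Pcdh18, Htra3, Anxa6 and Rgs5 at 2.02 to 2.12-fold. Within the large-patch area Pdlim3 stood at 3.44-fold (3.27 to 3.62), Nrp2 at 2.49-fold, Timp3 at 2.20-fold, Sparcl1 at 1.88-fold (1.81 to 1.94), Cd55 at 1.82-fold and Ltbp4 at 1.63-fold. Within the side-patch area Pdlim3 stood at 3.47-fold (2.96 to 4.07), Cd55 at 2.98-fold, Sparcl1 at 2.25-fold, Ltbp4 at 2.06-fold and Timp3 at 1.62-fold, and Nrp2 was not higher, at 0.948 times (0.709 to 1.24). Pooled over the areas, Gata4 at 1.18-fold, Ednra at 1.18-fold and Gucy1a1 at 1.07-fold stood much nearer to 1 here than against the whole section. Within the large-patch area Gata4 lay below nearby cells, at 0.801 times (0.724 to 0.885). In the side-patch area it stood at 0.256 times (0.0934 to 0.562, on 6 counts). Ednra was higher in both areas, at 1.48-fold (1.34 to 1.64) and 1.57-fold (1.44 to 1.71), and Gucy1a1 stood at 0.914 and 1.07. With the rule's genes in the denominator 5 genes were higher and 58 lower. With the largest patch left out 15 were higher, and with the largest patch alone 6 were.

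In the other direction 42 genes were lower in members than in nearby cells (14.6%). They include the endothelial receptor Aplnr, 6.92 times lower (5.21 to 9.40), the arterial connexin Gja5, 5.42 times (3.95 to 7.64), Ptx3, 4.60 times on 14 counts in members, Spint2, 4.54 times (3.93 to 5.28), the hypoxia factor Epas1, 4.43 times (3.55 to 5.6), and Cdkn1a, 4.36 times (3.45 to 5.58). The rule admits at most 1 endothelial count in a member, while nearby cells may hold any number, so the endothelial genes in this group follow the rule in part. With each cell thinned to 40 counts 9 genes were higher and 16 lower than in nearby cells, and without the largest patch 15 and 20.

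A count in the cell is a second way to read these genes, and it depends on depth. Pdlim3 was counted in 74.5% of members (median 194 panel counts) and in 13.4% of 1205 macrophage-type cells, which had at least 4 counts of C1qa, C1qb and C1qc and a median of 176 panel counts. With each cell thinned to 40 counts outside the rule's genes, which left out 18 members, the shares were 41.2% (37.9 to 44.5%) and 4.63% (3.51 to 5.98%). Vascular-type cells lay between, with Pdlim3 in 44.7%, or 22.7% after thinning (20.2 to 25.3%). After thinning, Pdlim3 was counted in 50.8% of members of the large-patch area and in 15.9% of those of the side-patch area (11.3 to 21.5%), which is below the vascular-type cells. Sparcl1 was counted in 92.0% of members, 44.8% of vascular-type and 30.3% of macrophage-type cells, or 68.1%, 22.5% and 9.93% after thinning. Cd55 was counted in 22.6% and 4.81%, or 6.33% and 0.926% after thinning. Per cell, members held 3.01 ± 3.46 Pdlim3 counts and 6.09 ± 5.94 Sparcl1 counts.

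The next comparison sets members beside the other Myh11 and Acta2 cells. Vascular-type cells met the muscle and endothelial parts of the rule and had no Foxf1 or Gata5 count. There were 1144 of them, with a median of 152 panel counts, 1 Myh11 count and 2 Acta2 counts. Of these, 20.9% lay in the large-patch area and 9.88% in the side-patch area. The name stands for the rule only, and a missed Foxf1 count can put a cell there. Whether cells other than vascular smooth muscle were among them was not tested. Myh11 stood at 1266 per 10000 in members and 223 in vascular-type cells, and Acta2 at 494 and 171.

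Members exceeded vascular-type cells in 22 of 287 genes (7.67%). Sparcl1 was 4.68-fold higher (4.41 to 4.97), the amino acid transporter Slc38a5 4.39-fold (3.22 to 6.09), Gata4 3.89-fold (3.22 to 4.73), Ltbp4 3.80-fold (3.37 to 4.28), the phospholipid transfer gene Pltp 3.73-fold (2.93 to 4.79), Nrp2 3.19-fold (2.86 to 3.56), Dcn 3.18-fold (3.01 to 3.35) and Cd55 3.09-fold (2.50 to 3.85). Several of these folds come from 1 area. Members of the side-patch area lay below vascular-type cells in Gata4 (0.248 times, 0.0895 to 0.553), Nrp2 (0.726 times, 0.538 to 0.962) and Dcn (0.591 times, 0.507 to 0.686), so these 3 rest on the large-patch area. Pltp stood at 10-fold and Slc38a5 at 8.75-fold in the side-patch area and at 2.12-fold and 3.33-fold in the large-patch area. Sparcl1 at 4.96-fold and 4.29-fold and Cd55 at 3.14-fold and 3.10-fold were higher in members of both the large-patch and the side-patch area. Against the vascular-type cells more than 400 micrometres from any member, 41 genes were higher. Pdlim3 stood at 166 and 87.9 per 10000, 1.88-fold (1.77 to 2.00), and Rgs5 at 41.4 and 37.6, 1.10-fold (0.991 to 1.23), so neither was called. By area Pdlim3 was 2.27-fold higher in members of the large-patch area (2.13 to 2.42). In those of the side-patch area it was lower, at 0.648 times (0.555 to 0.754). Rgs5 stood at 1.15 and 0.832 in the large-patch and the side-patch area.

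Vascular-type cells exceeded members in 28 genes (9.76%). Cdkn1a was 22.4 times higher in them (17.7 to 28.7), Gja5 17.0 times (12.3 to 24.1) and the growth factor binding gene Igfbp3 7.58 times (5.90 to 9.86). The transcription factor gene Prox1 was 5.49 times higher (3.91 to 7.91) and the heart factor Tbx20 4.82 times (2.94 to 8.31). The fatty acid receptor Cd36, Epas1 and Ptx3 followed at 4.80, 4.52 and 4.50 times. Heyl, a Notch target of vascular smooth muscle, was 3.56 times higher in vascular-type cells, and the Notch1 receptor 2.14 times. Set against members of the large-patch and the side-patch area, Heyl was 4.75 and 1.83 times higher in vascular-type cells, and Notch1 2.20 and 1.97 times. Thinned to 40 counts, 15 genes were higher in vascular-type cells, and with the rule's genes in the denominator 17 were higher in members and 40 in vascular-type cells.

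Members were also set beside cells with the same factors and no muscle counts. Visceral mesenchyme-type cells had at least 2 counts of Foxf1 and Gata5, none of Myh11 or Acta2 and fewer than 2 endothelial counts. There were 3016, with a median of 134 panel counts, and 66.2% of them lay outside both areas. Foxf1 stood at 218 per 10000 in members and 178 in these cells, while Gata5 stood at 19.1 and 39.3.

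Against them 18 genes were higher in members (6.27%). Pdlim3 had the highest fold, at 14.1 (lower bound 12.8), followed by Sparcl1 at 7.46 (7.09 to 7.85), Hand2 at 4.24 (3.88 to 4.64), the zinc finger factor Casz1 at 3.77 (3.06 to 4.65), Cd55 at 3.68 (3.10 to 4.38) and Kcnj8 at 3.56 (3.23 to 3.92). In the other direction 34 genes were higher in mesenchyme-type cells (11.8%), and with the rule's genes in the denominator the numbers were 12 and 52. The homeobox genes Prrx1 and Prrx2, of limb and face mesenchyme, were 22.7 times (15.3 to 35.2) and 8.30 times higher there (6.16 to 11.4). Asb4 was 8.26 times higher (6.48 to 10.7), Ptx3 6.18 times (3.61 to 11.5), the Wnt modulator Sfrp2 5.93 times (5.36 to 6.57) and the elastic fibre gene Fbln2 5.64 times (4.98 to 6.41).

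Restricting both groups to 1 area ended or turned many of these differences. Sfrp2 was 1.71-fold higher in members of the large-patch area (1.37 to 2.14) and 1.40 times lower in those of the side-patch area. Prrx1 stood at 1.16 (0.518 to 2.77) and 0.560 times (0.133 to 1.81) the mesenchyme-type share, Prrx2 at 0.828 (0.458 to 1.52) and 0.331 times (0.15 to 0.656), Asb4 at 1.39 (0.810 to 2.47) and 0.364 times (0.157 to 0.754) and Ptx3 at 0.521 (0.187 to 1.43) and 0.546 times (0.0966 to 2.12), for the large-patch and the side-patch area. Hand2 stood at 1.60-fold (1.43 to 1.79) and, on 2 counts in members, 0.455 times (0.0471 to 2.28). In the large-patch area Pdlim3 was 4.31-fold (3.84 to 4.84) and Sparcl1 4.45-fold higher (4.08 to 4.86) in members than in the 485 mesenchyme-type cells, while Cd55 at 1.59-fold (1.24 to 2.05) and Eln at 1.49-fold (1.26 to 1.76) stayed below 2-fold. In the side-patch area, with 535 mesenchyme-type cells, Pdlim3 was 6.11-fold (4.51 to 8.39), Cd55 5.21-fold (3.16 to 8.90) and Eln, the elastin gene, 5.19-fold higher (4.43 to 6.11), while Sparcl1 stood at 1.80-fold (1.65 to 1.96). Casz1 was 2.26-fold and 3.41-fold higher in members of the large-patch and the side-patch area. Gata4 was lower in members in both areas, 2.78 times (2.47 to 3.13) and 5.40 times (2.34 to 15.3, on 6 counts in members), and Fbln2 3.40 times (2.86 to 4.05) and 5.62 times (3.59 to 9.27). Kcnj8, at 0.967 (0.869 to 1.08) and 0.549 times, was not higher in members of either area than in the mesenchyme-type cells beside them.

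The members of both areas differed from each other in 47 genes, 28 of them higher in the large-patch area (9.76%) and 19 in the side-patch area (6.62%). Differences of this size between parts of 1 section have no replicate, and the areas were drawn after the positions had been seen. Among the rule's own genes, Gata5 was counted in 60.3% of members of the side-patch area (53.5 to 66.7%) and 4.80% of those of the large-patch area (3.28 to 6.74%). Foxf1 was counted in 92.9% and 100% of them. The median Myh11 count was 6 in the side-patch area and 19 in the large-patch area, on a median of 152 and 215 panel counts.

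Members of the large-patch area held more of several transcription factors. Hand2, a basic helix-loop-helix factor, stood at 94.8 per 10000 in the large-patch area on 1183 counts, and at 0.607 in the side-patch area on 2 counts. Hand2 was counted in 57.4% and 0.893% of the members. Gata4 stood at 36.0 and 1.82 per 10000, 19.8-fold higher (9.01 to 54.2), and Meis2 at 246 and 39.4, 6.25-fold higher (5.24 to 7.51). Hoxa5, at 21.8 and 24.9, and Nkx2-3, at 1.20 and 0.607 on few counts, were not called. The potassium channel pair followed the same direction, with Kcnj8 at 73.8 and 5.76 per 10000 (12.8-fold, 8.15 to 21.4) and Abcc9 at 15.1 and 1.82. The list of higher genes went on with the zinc finger factor Klf4 at 9.06-fold, Dcn at 6.70-fold (5.80 to 7.78), Nrp2 at 5.39-fold (4.11 to 7.20) and Pdlim3 at 3.50-fold (3.02 to 4.08).

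Members of the side-patch area held more of several matrix and receptor genes. Mgp, an inhibitor of calcification, stood at 71.3 per 10000 there and 8.17 in the large-patch area, 8.72-fold higher (6.88 to 11.1). Bgn, a small matrix proteoglycan, stood at 114 and 21.9, 5.20-fold higher (4.44 to 6.10), and Eln at 183 and 41.2, 4.43-fold higher (3.93 to 5). Ednra stood at 169.5 and 38.4, 4.42-fold higher (3.90 to 5), and Lox, which crosslinks elastin and collagen, at 141 and 51.3, 2.76-fold higher (2.44 to 3.11). Heyl was 2.59-fold higher (2.09 to 3.21).

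Some leading genes of the members were not called between the areas. Sparcl1 stood at 355 per 10000 in the large-patch area and 307 in the side-patch area, Cd55 at 19.3 and 19.1, the annexin Anxa6 at 705 and 719, and the basement membrane collagen Col4a1 at 396 and 442.

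**Figure D4:**
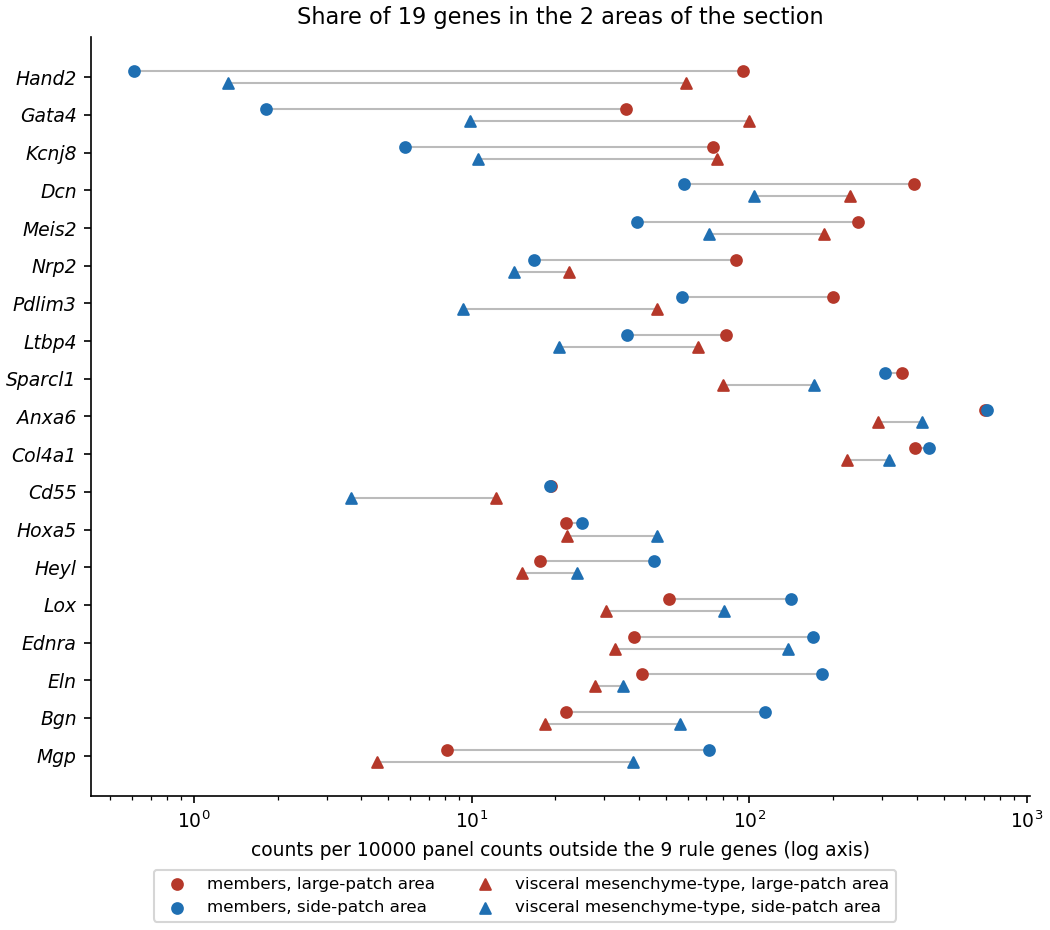
Share of 19 genes, in counts per 10000 panel counts outside the rule's genes on a log axis, in members (circles) and visceral mesenchyme-type cells (triangles) of the large-patch area (red) and the side-patch area (blue). Hand2, Gata4, Kcnj8 and Meis2 differ between the areas in both kinds of cell, while Eln stands at 183 against 41.2 in members and at 35.1 against 27.7 in mesenchyme-type cells.

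The mesenchyme-type cells of the same places were compared in the same way. Of all 287 genes, 11.1% were called higher and 39.0% stood higher in those of the large-patch area, and 8.36% were called higher and 61.0% stood higher in those of the side-patch area. Of the 28 genes higher in members of the large-patch area, 18 were called in the same direction between the mesenchyme-type cells of the areas and 27 had the same sign. Of the 19 higher in members of the side-patch area, 9 were called and 15 had the same sign. Hand2 stood at 59.3 and 1.33 per 10000 in the mesenchyme-type cells, and Gata4 at 100 and 9.83. Eln differed in the members but stood at 27.7 and 35.1 in these cells, and Nrp2 stood at 22.4 and 14.2.

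Within the largest patch, members varied with their Myh11 count. Split at the median of 19 counts, 325 members had at least that many and 314 had fewer, with median depths of 235 and 192 panel counts. The split divides a continuous range, was set after the counts had been seen, and it uses a gene of the rule. With high Myh11, 10 genes were higher (3.48%), among them Casz1 at 4.75-fold (3.23 to 7.19), the antiproliferative gene Btg2 at 2.93-fold (2.27 to 3.83), Sparcl1 at 2.45-fold (2.3 to 2.62), Gata4 at 2.14-fold (1.74 to 2.64) and Nrp2 at 2.06-fold (1.81 to 2.34). With low Myh11, 18 genes were higher (6.27%), among them the macrophage receptor Mrc1 at 6.07-fold (4.00 to 9.58), Klf4, a factor that opposes smooth muscle differentiation, at 5.28-fold (4.12 to 6.86), Dcn at 4.32-fold (4.02 to 4.65), Fbln2 at 3.92-fold (2.76 to 5.70), Lox at 3.38-fold (2.80 to 4.10) and the collagen gene Col1a2 at 2.67-fold (2.40 to 2.97). Members with low Myh11 lay a median of 54.5 micrometres from a Spint2 cell and those with high Myh11 70.7 micrometres. How far counts of neighbouring cells enter the members with low Myh11 was not tested.

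The cells around the members were read by their distance to the nearest member. A member's nearest kept cell centre lay a median of 8.25 micrometres away, so drawn cell borders adjoin. Myh11 stood at 1266 per 10000 in members, 240.0 in the 3394 other cells within 25 micrometres, 30.3 at 25 to 50 micrometres and 3.39 beyond 400. Whether the Myh11 counts within 25 micrometres crossed a drawn border or belong to muscle cells that missed the rule was not tested. Without cells whose nearest centre lay within 8 micrometres, 493 members were left, with 22 genes higher and 56 lower than in all other kept cells.

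**Figure D5:**
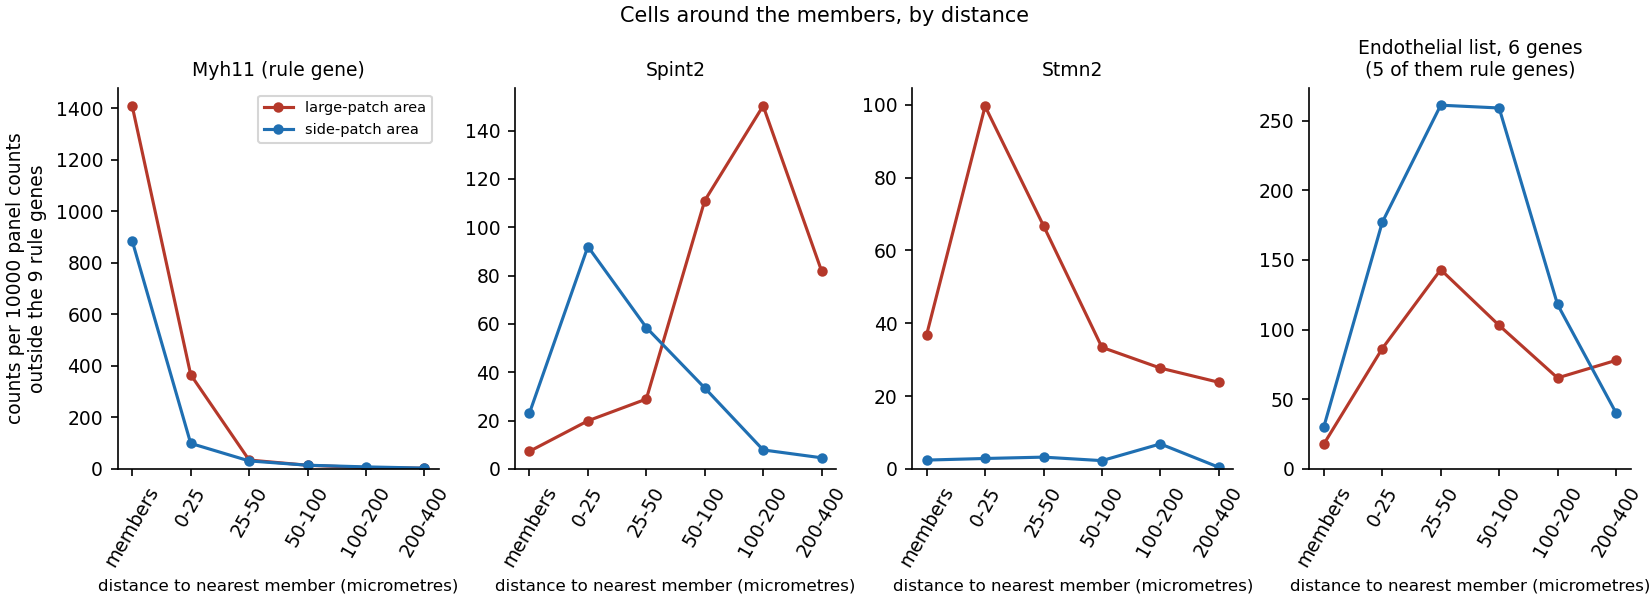
Share of Myh11, Spint2, Stmn2 and the 6-gene endothelial list in members and in other kept cells by distance to the nearest member in micrometres, as counts per 10000 panel counts outside the rule's genes, for the large-patch area (red) and the side-patch area (blue). Spint2 peaks at 150.2 between 100 and 200 micrometres in the large-patch area and at 92.0 within 25 micrometres in the side-patch area, and Stmn2 stands at 99.6 and 2.87 within 25 micrometres in the large-patch and the side-patch area.

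The order of cell types around the members was not the same in both areas. In the large-patch area Spint2 stood at 7.29 per 10000 in members, 19.9 within 25 micrometres and 150.2 at 100 to 200 micrometres, and that box also holds a separate group of Spint2 cells. In the side-patch area it stood at 23.1 in members, 92.0 within 25 micrometres and 7.86 at 100 to 200. Stmn2 stood at 36.9 in members of the large-patch area and at 99.6 in the cells within 25 micrometres, then at 33.4 by 50 to 100 micrometres. In the side-patch area it stood at 2.43 in members and at 2.28 to 3.24 in the cells within 100 micrometres. The glial list of 4 genes stood at 11.8 and 22.2 in members and nearest cells of the large-patch area and at 11.2 and 23.6 in the side-patch area. Within 400 micrometres of a member the endothelial list was highest at 25 to 50 micrometres, at 143 in the large-patch area and 261 in the side-patch area, against 17.9 and 30.3 in members, where the rule caps 5 of its 6 genes. It stood at 217 in the 123 cells of the large-patch area beyond 400 micrometres.

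The remaining lists are given against all other kept cells, for which 8.36% of all genes were higher, 20.6% lower and the median fold was 0.808. Of the visceral mesoderm factors, 7 of 25 were in the panel and 5 were outside the rule. Over all members Gata4 and Hand2 were higher, none was lower and the median fold was 1.27. Meis2 stood at 1.27-fold, Hoxa5 at 1.17-fold and Nkx2-3 at 0.741 times. In the large-patch area Gata4, Hand2 and Meis2 stood at 5.76, 4.66 and 1.54-fold. In the side-patch area they lay below the other cells, at 0.291, 0.0298 and 0.246 times, Gata4 on 6 counts and Hand2 on 2. Of 5 hedgehog, BMP and Wnt genes, none was higher over all members and the Wnt genes Dkk2 and Wnt4 were lower, with a median of 0.738. Sfrp2 stood at 0.738 times, the BMP receptor Acvrl1 at 1.72-fold and its target Tmem100 at 1.36-fold. Acvrl1 stood at 1.45-fold in the large-patch area and 2.84-fold (2.05 to 3.83) in the side-patch area. Tmem100 stood at 1.17-fold and 2.27-fold (1.58 to 3.16), and Sfrp2 at 0.762 and 0.548 times. The panel held no hedgehog ligand or receptor of the list.

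Of 13 elastic fibre and collagen genes, Ltbp4, Eln at 2.95-fold (2.78 to 3.13), Lox at 2.21-fold (2.08 to 2.34), Col4a1 at 2.13-fold (2.08 to 2.18) and Mgp at 2.06-fold (1.85 to 2.3) were higher over all members, Fbln2 and Col15a1 were lower, and the median was 1.24. Mgp stood at 8.17 per 10000 in the large-patch area and 10.2 in the other cells, so its call rests on the side-patch area. Eln stood at 1.70-fold in the large-patch area and 7.52-fold in the side-patch area, and Col4a1 at 2.11-fold and 2.35-fold. Fibronectin, Fn1, stood at 0.900 times and Col1a2 at 1.43-fold. Of 12 IGF, endothelin, chemokine and Notch genes, Ednra and the chemokine Cxcl12 at 2.05-fold (1.93 to 2.18) were higher, Igfbp3 was lower and the median was 1.08. Cxcl12 stood at 2.32-fold in the large-patch area and 1.11-fold in the side-patch area (0.925 to 1.33). Igfbp5 stood at 0.947 and Notch1 at 0.574 times.

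Over all members none of 13 cell cycle genes was called, and their median was 1.08. Top2a stood at 1.37-fold, Cenpf at 1.42-fold, Aurka at 1.08-fold and Ube2c at 1.06-fold. In the large-patch and the side-patch area Top2a stood at 1.22-fold and 2.03-fold (1.87 to 2.19), and Cenpf at 1.27-fold and 2.08-fold (1.84 to 2.35). The list summed to 320.3 and 532 per 10000 in these members, against 303 in the other cells. Against nearby cells of the same area Top2a stood at 0.863 and 0.792 times and Cenpf at 1.07 and 0.907. Of 5 cell cycle exit genes only Cdkn1a was called, as lower, and the median was 0.818. Cdkn1c stood at 0.605, Btg2 at 1.36 and Ccng1 at 0.871 times. Btg2 stood at 1.11-fold in the large-patch area and 2.33-fold (2.00 to 2.69) in the side-patch area. Of 5 imprinted genes Asb4 was lower, 4.06 times, and the median was 0.622, with H19 at 0.717, Gnas at 0.737 and Dlk1 at 0.622 times.

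Markers of other cell types were read in the same way. Of 10 mural and pericyte genes Rgs5, Kcnj8 and Abcc9 were higher over all members and Rgs4 and Vtn lower. The median was 1.14, with Pdgfrb at 1.49-fold and Heyl at 1.22-fold. In the large-patch and the side-patch area Kcnj8 stood at 7.40-fold and 0.578 times (0.348 to 0.902). Abcc9 stood at 15.1 and 1.82 per 10000 in members of these areas. Rgs5 stood at 3.50-fold and 2.54-fold, and Heyl at 0.913 times and 2.37-fold (2.00 to 2.78). The list summed to 160.3 per 10000 in members and 102 in the other cells, and whether mural cells contribute to the members was not tested. Of 8 fibroblast and mesenchyme genes Dcn was higher and Prrx1, Prrx2, Foxd1 and Cytl1 lower, with a median of 0.680, Fibin at 1.41-fold and Tcf15 at 1.14-fold. The list summed to 514 per 10000 in members and 277 in the other cells. In members of the large-patch area it summed to 611, and in those of the side-patch area to 188, below the other cells. Dcn stood at 3.68-fold and 0.550 times (0.475 to 0.633) in the large-patch and the side-patch area. None of 6 macrophage genes was called, with a median of 0.818 and sums of 27.9 and 34.8. Mrc1 stood at 0.808, C1qa at 0.875, C1qc at 0.709 and Tyrobp at 0.908 times.

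All 4 neuron genes were lower in members, Reln 6.53 times, with sums of 48.4 and 483 per 10000. In other kept cells the sum was 82.4 within 25 micrometres of a member and 664 beyond 400. Against mesenchyme-type cells of the large-patch area, Stmn2 was 2.54-fold (2.05 to 3.17) and Tubb2b 1.93-fold higher (1.38 to 2.74) in members. Reln stood at 0.630 times there (0.447 to 0.890) and Scn3a at 1.26-fold (0.445 to 4.03). Of 4 glial genes Fabp7 was 4.46 times and Slc1a3 3.84 times lower, while Scn7a at 0.637 and Egfl8 at 0.337 times were not called. Scn7a stood at 0.517 times in the large-patch area and 1.15-fold (0.703 to 1.78) in the side-patch area. Both erythroid genes, Car2 and Bpgm, were lower over all members, as was Tbx20, the only heart gene. Bpgm stood at 0.344 times in the large-patch area and 0.959 times (0.776 to 1.17) in the side-patch area, so its call rests on the large-patch area. Car2 stood at 0.0578 and 0.447 times. The 1 endothelial gene outside the rule, Aplnr, was 3.36 times lower, and Spint2 stood at 0.563 times. By area Spint2 stood at 0.358 times in the large-patch area and 1.13-fold (0.891 to 1.42) in the side-patch area. The lists for mesothelium, interstitial cells of Cajal and skeletal muscle had no gene in the panel.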

How the data were processed

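RNA was imaged by MERFISH on the Vizgen MERSCOPE platform in 3 sections, per the labels. The deposited tables hold whole-number counts of 296 genes and 19 blank codes per segmented cell. Per the file headers, a companion table gives each cell's centre, volume and summed DAPI and PolyT stain intensity, and the stain intensity entered no comparison. The header gives no unit for positions, which are read as micrometres. The tools Seurat and Scanpy are listed in the submitters' processing notes without versions or roles. How cells were segmented and molecules decoded is not given in the sources used here.

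Cells with at least 10 gene counts were kept. Counts were summed over groups of cells with Python 3.11.15, numpy 2.4.6, pandas 2.3.3 and SciPy 1.17.1, and figures were drawn with matplotlib 3.10.9. Fold intervals are exact conditional binomial ones and those of shares of cells are Clopper-Pearson, both at 95% and for counting error only. The interval calculation was tested on simulated Poisson counts, the model it assumes. That check cannot show how the intervals hold for counts that vary between cells or areas. With 1 section at E15.5 no test between sections was made. For a gene lower in members than in all other or nearby cells, the 50 counts of a call are those expected at the members' depth; in the other comparisons they are counts in the group where the gene is higher. No doublet caller was run, since segmentation sets what a cell is.

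Named genes were the rule's 9, the 12 highest and 8 lowest against all other kept cells, the 8 highest in each direction against vascular-type cells, the 6 highest in each direction against mesenchyme-type and nearby cells, and up to 4 per list by counts in members. Genes beyond these, the areas, the comparisons by area, the patches of at least 30 members and the Myh11 split were chosen after their values were seen. The members and lists were chosen with earlier results of these data known.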

Additional observations from a re-analysis of the deposited data

Results flagged for a closer look

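The rule was also applied to both E9.5 sections, which enter no comparison. In E9.5 section 2, 66 of 6334 kept cells met it (1.04%, exact 95% interval 0.807 to 1.32%), and in E9.5 section 1 none of 830 did, which allows a share of up to 0.361% taken as 3 cells of the total, or 0.443% as the exact 95% upper bound. The 66 cells were picked by other genes of the rule than the E15.5 members: Gata5 was counted in 98.5% of them and Foxf1 in 21.2%, and their median was 1 Myh11 count, 13 Acta2 counts and 4 Gata5 counts on 380 panel counts. Against the other kept cells of that section, the heart factor Tbx20 stood at 159 and 42.5 per 10000 (3.75-fold, 3.39 to 4.14), Gata4 at 223 and 81.8 (2.72-fold, 2.50 to 2.96) and Pdlim3 at 55.1 and 10.6 (5.18-fold, 4.34 to 6.15). Sparcl1 stood at 12.1 and 60.9 and Ltbp4 at 2.94 and 15.4, lower in the 66 cells. Whether these cells are the same cell type as the E15.5 members was not tested, and stage cannot be told apart from section and embryo.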

How the results depend on the processing

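The counts of called genes and the spatial values were recomputed in 109 alternatives, of which 97 stayed within 1.5 times the first value and 12 did not. With the rule's 9 genes in the denominator the median log2 fold against all other kept cells went from -0.308 to -0.556, 52 genes were higher in mesenchyme-type cells and 5 were higher in members than in nearby cells. Calls against all other kept cells then split into 18 higher and 74 lower, and those against nearby cells into 5 and 58. Per cell volume that median was 0.0959, with 37 genes higher and 39 lower than in all other kept cells. Thinned to 40 counts, 34 genes were lower than in all other kept cells, 15 higher in vascular-type cells and 16 lower than in nearby cells. Without the largest patch 37 genes were lower than in all other kept cells and 20 lower than in nearby cells, and Kcnj8 (0.827), Hand2 (0.608) and Dcn (0.662) turned direction. With 2 alternatives chosen after seeing the data, the largest patch alone gave 6 genes higher than in nearby cells, and vascular-type cells over 400 micrometres from a member gave 41 genes lower than members. Contractile genes summed to 338 per 10000 within 25 micrometres of any member and 537 around the largest patch. Single gene folds were recomputed in 949 alternatives for 73 genes. Of these folds 622 moved by less than their counting interval, 324 by more, and the 3 named here turned direction. A turn was counted only for a gene called at first, so genes without a call that crossed 1 are not among the 3. A link of 30 micrometres gave 132 patches with 437 members in the largest, and 80 micrometres gave 37 and 642. No paired analysis was possible because the stage has 1 section. Genes under the mean blank code, 25 of 287 in members, are beyond what this depth can rank.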

Other observations

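Outside both areas, 32 members (3.55%) lay scattered over the section. They had a median of 6 Myh11 counts and 2 Foxf1 counts. Sparcl1 stood at 81.0 per 10000 panel counts in them, against 355 in the large-patch area and 307 in the side-patch area, and was counted in 65.6% of them (46.8 to 81.4%). Hand2 was counted in 37.5% of these members (21.1 to 56.3%) and Gata5 in 25% (11.5 to 43.4%).

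A further 229 cells met the muscle and Foxf1 or Gata5 parts of the rule but held at least 2 endothelial counts. Their median was 2 Myh11 counts, on 230 panel counts and a volume of 1117 cubic micrometres, against 12, 194 and 799 in the members. Sparcl1 stood at 258 and Pdlim3 at 70.8 per 10000 in them, against 336 and 166 in the members. Whether these larger cells hold RNA of more than 1 cell was not tested.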
